A study of Homo sapiens with 4 samples.

Results

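The genes described here are the integrin alpha and beta subunits and the chains of laminin, in the human glioblastoma cell line LN-229. They were taken by symbol: every probe set whose single gene symbol in the platform annotation is that of an integrin alpha subunit, of integrin beta 1 to 8 or of a laminin alpha, beta or gamma chain. This gave 95 of 54613 probe sets, which read 35 of 19775 genes: 18 integrin alpha, 7 integrin beta, 4 laminin alpha, 4 laminin beta and 2 laminin gamma genes. Expression was measured on 4 Affymetrix arrays, 1 per culture. In 2 cultures LN-229 cells had received doxycycline (Doxocyclin in the labels) for 48 h to express WIF1, and 2 cultures of the same line were not induced and serve as controls. WIF1 is a secreted protein that binds WNT ligands. The labels name neither the promoter of the WIF1 construct nor whether the line is 1 clone, and no culture received doxycycline without WIF1, so the drug and WIF1 cannot be told apart. The questions addressed are which subunits LN-229 expresses and how their signals differ after induction. RNA was taken from whole cultures, so fewer cells of a kind and less RNA per cell cannot be told apart.

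Integrins are cell surface receptors made of 1 alpha and 1 beta chain, and the pair decides which matrix protein is bound. Laminins are secreted trimers of an alpha, a beta and a gamma chain, which build the sheet of basement membrane together with type IV collagen, nidogens and perlecan. Glioma cells are known to move along the basement membranes of brain vessels, and integrins link that matrix through talin and kindlins to the actin skeleton.

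The arrays were first checked against their labels. WIF1 itself was read by 1 dim probe set. It gave 2.93 and 3.03 in the induced arrays and 2.98 and 2.90 in the controls (log2 intensity, adjusted p = 0.911 by limma). No rise of WIF1 was thus seen, and whether this probe set reads the WIF1 construct is not known here. Induction could not be checked through it and is taken from the labels. To judge whether a probe set shows expression, a background bound was set on each array as the 95th percentile of 178 probe sets for olfactory receptors, bitter taste receptors, keratin-associated proteins and beta-defensins, gene families mostly confined to other tissues. The bound lay between 6.45 and 6.66, and the stricter 99th percentile between 7.13 and 7.22. By this measure 9 of 14 astrocyte and glioma markers were over the bound on all 4 arrays (among them VIM, NES, SOX2, S100B and FABP7), while GFAP, the defining astrocyte filament, was not, at 5.76 and 5.51 in the induced arrays and 5.44 and 5.92 in the controls. Of other cell types, 0 of 6 epithelial, 1 of 5 leukocyte, 2 of 6 endothelial, 4 of 6 neuronal and 1 of 4 platelet markers were over it. PTPRC, EPCAM and CDH5, which define leukocytes, epithelium and endothelium, were under it on all arrays. The markers of these other cell types over it were CD3E, PECAM1 and CLDN5, and, also over the 99th percentile, MAP2, GAD1, SLC17A7, SNAP25 and GP9. The summed linear intensity of the glioma markers was 33479 to 33497 in the induced arrays and 34583 to 35312 in the controls. The bound is not a detection limit for every gene. TLN1, the talin that all adherent cells use, passed it on 3 arrays at a mean of 6.58.

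Of the 35 genes, 21 had a representative probe set (the one with the highest mean) over the bound on all 4 arrays, 3 passed on some arrays and 11 on none. Of all genes, 10960 of 19775 passed it on all 4 arrays. By probe set 39 of the 95 did, against 40.2% of all probe sets. At the 99th percentile 17 genes remained over it. These are 7 alpha genes (ITGA2, ITGA3, ITGA4, ITGA5, ITGA6, ITGAE and ITGAV), 5 beta genes (ITGB1, ITGB2, ITGB3, ITGB5 and ITGB8) and the laminin genes LAMA4, LAMB1, LAMB2, LAMB3 and LAMC1. ITGA2B, ITGA8, ITGB4 and ITGB7 passed the 95th but not the 99th percentile on every array, as did PECAM1, a marker of endothelium. ITGA8 passed through a probe set marked x_at, for probes that may bind other transcripts. Its other probe sets averaged 4.54, 3.75 and 3.58, and those of ITGA2B 5.90, 5.72 and 2.60, all under the bound. Taking the brightest probe set favours passing, and with probe sets averaged per gene 16 genes were over the 95th percentile. Probe sets differ in how brightly they read the same amount of RNA, so a level is set here against the bound and not against the level of another gene.

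**Figure D1:**
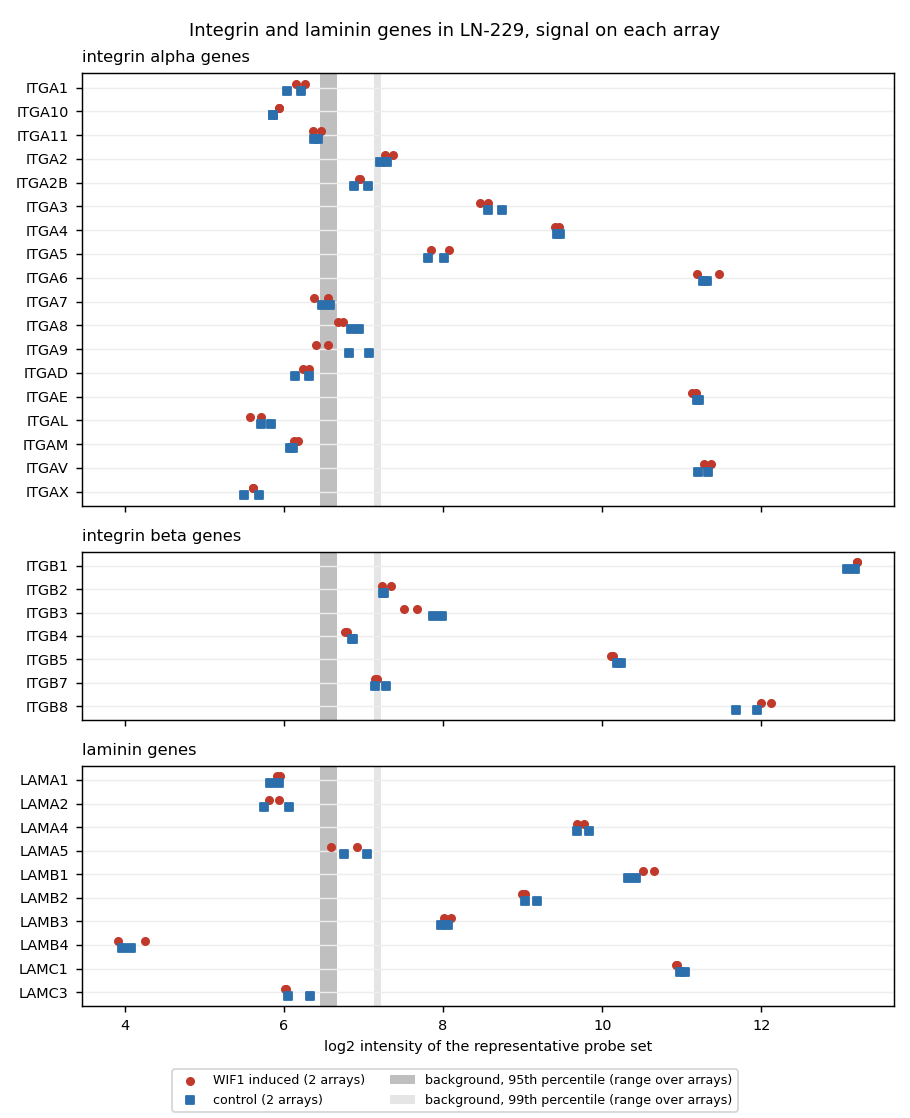
Log2 intensity of the representative probe set of each of the 35 genes (1 row per gene) on the 2 WIF1 induced arrays (circles) and the 2 control arrays (squares), with the range over arrays of the 95th percentile (6.45 to 6.66) and the 99th percentile (7.13 to 7.22) of the background probe sets as grey bands. ITGB1, ITGB8, ITGA6, ITGAV, ITGAE and LAMC1 lie far to the right of both bands on all 4 arrays, and the leukocyte genes ITGAL, ITGAM, ITGAX and ITGAD lie left of them.

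Among the beta subunits, ITGB1 stood far over the bound. ITGB1 encodes the beta chain that pairs with most alpha chains, and it read 13.21 and 13.21 in the induced arrays and 13.18 and 13.08 in the controls. ITGB8, whose product pairs with alpha V and takes part in the activation of latent TGF-beta, read 12.00 and 12.13 in the induced arrays and 11.94 and 11.68 in the controls. ITGB5, the vitronectin receptor chain, read 10.11 and 10.13 in the induced arrays and 10.18 and 10.24 in the controls. For each of these 3 genes the groups did not overlap, with ITGB1 and ITGB8 on the higher side after induction and ITGB5 on the lower. Groups did not overlap in 43.9% of all genes either. For each of the 3, another probe set over the bound went the other way, as given below. ITGB3, the beta chain of the alpha V and platelet alpha IIb receptors, read 7.51 and 7.67 in the induced arrays and 7.99 and 7.87 in the controls, so both induced values lay under both controls. ITGB2, the leukocyte beta chain, was over the 99th percentile through 1 probe set only, at 7.23 and 7.34 in the induced arrays and 7.25 and 7.25 in the controls. Its 2 other probe sets averaged 6.08 and 5.82 over the 4 arrays and were under the bound. The name of the brighter one ends in x_at, the platform's mark for probes that may bind other transcripts.

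Among the alpha subunits that bind laminin, ITGA6 read 11.19 and 11.47 in the induced arrays and 11.32 and 11.26 in the controls. ITGA3 read 8.56 and 8.46 in the induced arrays and 8.56 and 8.74 in the controls. ITGA7, another laminin-binding chain, passed the bound on 1 array. The ITGA6 controls lay between the induced values, while both ITGA3 induced values lay under both controls, in 1 case by less than 0.01.

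The alpha chains for fibronectin and other RGD ligands were also over background. ITGAV, the chain shared by the vitronectin receptors, read 11.28 and 11.37 in the induced arrays and 11.32 and 11.21 in the controls. ITGA5, the fibronectin receptor chain, read 8.07 and 7.85 in the induced arrays and 7.81 and 8.01 in the controls. ITGA4, which binds fibronectin and VCAM1, read 9.46 and 9.41 in the induced arrays and 9.43 and 9.48 in the controls. In these 3 genes the groups overlapped. Of the collagen-binding chains, ITGA2 was over the 99th percentile, at 7.27 and 7.37 in the induced arrays and 7.20 and 7.29 in the controls, while ITGA1, ITGA10 and ITGA11 were under the bound on all arrays. ITGA1 and ITGA2 lie next to each other on chromosome 5, with 0 protein-coding genes between them in the RefSeq gene table.

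The leukocyte alpha chains ITGAL, ITGAM, ITGAX and ITGAD were under the bound on all arrays, with means of 5.60 (ITGAX) to 6.25 (ITGAD). ITGAM, ITGAX and ITGAD are neighbours on chromosome 16. ITGAE, known as the alpha chain of intraepithelial T cells, read 11.13 and 11.18 in the induced arrays and 11.20 and 11.22 in the controls. Both induced values lay under both controls, with a difference of -0.05 and a gap of 0.04 between the induced arrays. ITGAE had 1 probe set. The RefSeq gene table places HASPIN and P2RX5 over the same stretch of the genome as ITGAE, and whether this probe set reads them is not known here.

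Of the laminin chains, LAMC1, the gamma chain of most laminins, read 10.93 and 10.94 in the induced arrays and 10.98 and 11.04 in the controls. LAMB1 read 10.51 and 10.65 in the induced arrays and 10.42 and 10.33 in the controls. LAMB2 read 8.99 and 9.03 in the induced arrays and 9.03 and 9.18 in the controls. Both LAMB1 induced values were above both controls, and those of LAMC1 and LAMB2 were below both controls. LAMB3, the beta chain of the epithelial laminin, read 8.10 and 8.01 in the induced arrays and 7.97 and 8.06 in the controls. LAMA4, the alpha chain of vessel and muscle basement membranes, read 9.68 and 9.77 in the induced arrays and 9.83 and 9.68 in the controls. LAMB3 and LAMA4 overlapped between groups. LAMA1, LAMA2, LAMB4 and LAMC3 were under the bound on all arrays, and LAMA5 passed it on 3, at 6.92 and 6.59 in the induced arrays and 6.75 and 7.04 in the controls. A further probe set, which the annotation gives to LAMA5 and its antisense gene LAMA5-AS1 together and which is counted for neither, was over the bound on all 4 arrays, at 7.42 and 7.40 in the induced arrays and 7.36 and 7.52 in the controls. LAMB4, at a mean of 4.05, lies directly beside LAMB1 on chromosome 7.

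Known pairs were then read from these genes. Of 24 integrin pairs listed from textbook knowledge, 23 had both genes among the 35, and in 14 both were over the bound, in 9 at the 99th percentile. All 4 measured alpha V pairs (with ITGB1, ITGB3, ITGB5 and ITGB8) were among those 9, with alpha 2, 3, 4, 5 and 6 beside ITGB1. Of 12 pairs with ITGB1, 7 had both genes over the bound, and of 4 pairs with ITGB2, 0 had. ITGA2B and ITGA8 passed through 1 of 4 probe sets each and ITGB3 through 1 of 7, so their pairs rest on 1 probe set of that gene. The same holds for pairs of ITGA3, ITGA5, ITGAE, ITGAV and ITGB7, which were read by 1 probe set each. Of 11 laminin trimers with all 3 chains measured, 2 had all chains over the bound, namely LAMA4 and LAMC1 with either LAMB1 or LAMB2. The 2 trimers of LAMA5 and LAMC1 with LAMB1 or LAMB2 missed this through LAMA5 on 1 array, and would be added if the probe set shared with LAMA5-AS1 were read as LAMA5. These are pairs of RNA signals, and protein at the cell surface was not measured.

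**Figure D2:**
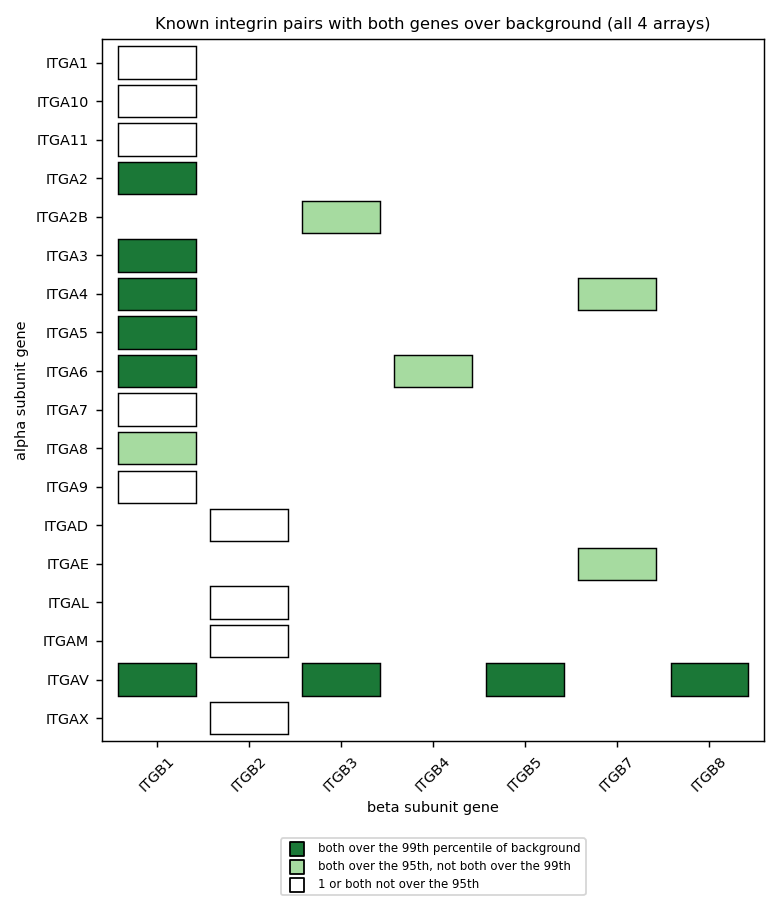
Each square is 1 of the 23 known integrin pairs with both genes measured, alpha gene down the page and beta gene across. Dark squares mark the 9 pairs with both genes over the 99th percentile of background on all 4 arrays, light green squares the other 5 of the 14 pairs over the 95th percentile, and open squares pairs with 1 or both genes not over it. The column of ITGB2 holds open squares only, and the row of ITGAV dark ones only.

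After induction, none of the integrin or laminin genes differed past the threshold. At an adjusted p under 0.05, limma called 0 of the 95 probe sets (Benjamini-Hochberg over all 54613), as it called 0% of all probe sets. At an unadjusted p under 0.05, 2 of the 95 were higher and 5 lower, against 4.75% and 5.27% of all probe sets. Without the second induced array these counts were 0 higher and 4 lower. The median difference, induced minus control, was -0.02 over the 95 probe sets and -0.01 over all probe sets. With 2 arrays per group, an exact permutation test could not go below p = 0.333. The limma p-values rest partly on each probe set's spread between these cultures and partly on a spread shared over all probe sets. Groups did not overlap in 39 of 95 probe sets (41.1%), against 41.4% of all. By direction 30 were lower and 9 higher, where 23.5% and 17.9% of all probe sets were. After each array was centred on its median this split was 19 lower and 13 higher, against 18.4% and 23.5% of all, and after cyclic loess 26 lower and 10 higher, against 21.3% and 20.9% of all. Of the 32 integrin beta probe sets 25 were lower by sign (78.1%), and of the 40 integrin alpha probe sets 18 (45%), against 55.1% of all. After centring these were 18 beta (56.2%) and 14 alpha (35%), against 46.5% of all, and after cyclic loess 20 beta (62.5%) and 15 alpha (37.5%), against 50.5% of all. The difference between both classes was not tested.

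Most of the expressed subunits differed by little. Of the 21 genes over the bound, 16 differed by less than 0.1 log2 units, and in 14 the difference was smaller than the larger of the gaps between replicates. The median gap between replicates was 0.09 for these genes in the induced arrays and 0.10 in the controls, and the median size of the difference was 0.07. The 95% intervals of these 21 differences, from the limma fit and not adjusted for their number, ran from -0.54 to 0.46 at the widest and included 0 in 18. For ITGB1 the difference was 0.08 (SE 0.037, interval -0.01 to 0.17), for ITGAV 0.06 (SE 0.053, interval -0.07 to 0.19) and for ITGA6 0.04 (SE 0.087, interval -0.17 to 0.25). For LAMC1 it was -0.07 (SE 0.038, interval -0.17 to 0.02) and for ITGB5 -0.09 (SE 0.043, interval -0.19 to 0.01). ITGA4, ITGA5, ITGAE, LAMA4 and LAMB3 lay between -0.05 and 0.05, and LAMB2 and ITGA3 at -0.10 and -0.14. The adjusted p of these 12 genes was 0.530 to 0.900.

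**Figure D3:**
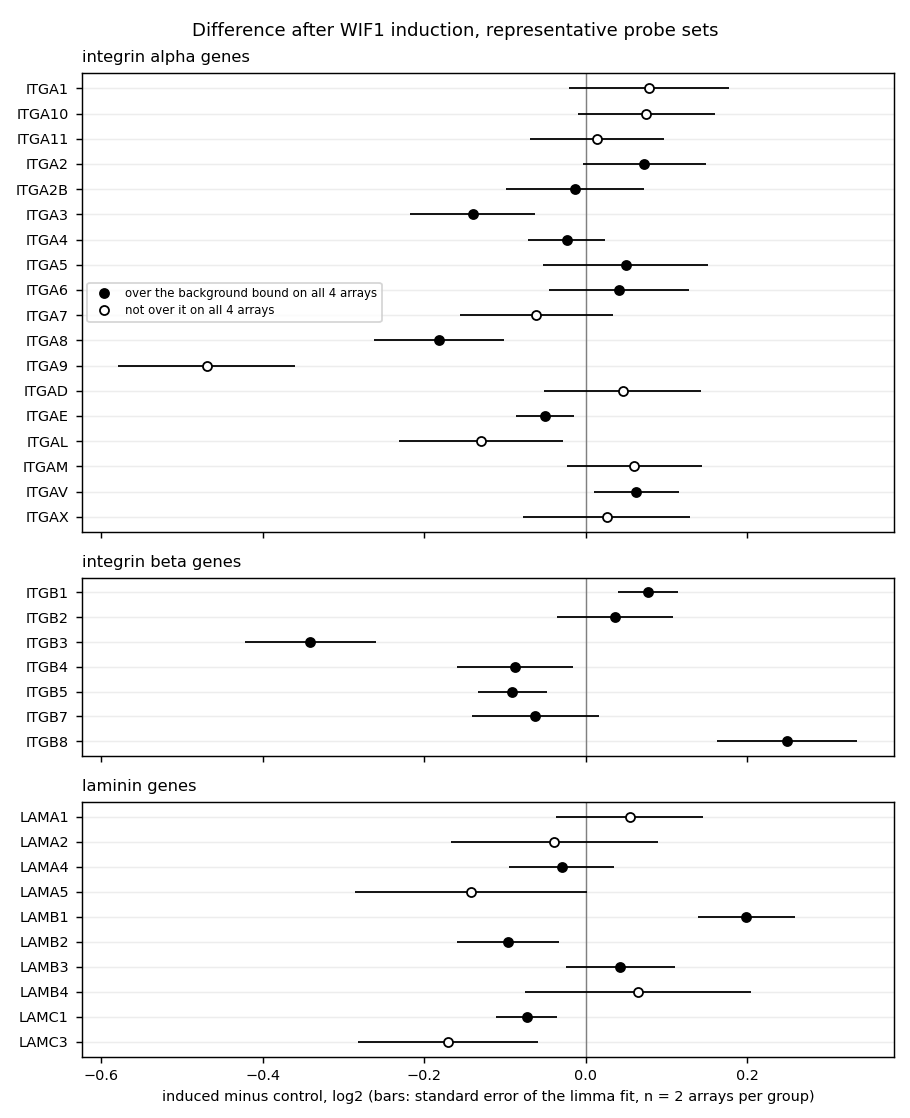
Induced minus control difference in log2 intensity of the representative probe set of each gene, with the standard error of the limma fit (n = 2 arrays per group). Filled points are genes over the background bound on all 4 arrays. Most points lie within 0.1 of 0, with ITGB8 (0.25) and LAMB1 (0.20) on the right and ITGB3 (-0.34) and ITGA9 (-0.47) on the left, and none passed an adjusted p under 0.05.

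The 3 expressed genes with an unadjusted p under 0.05 in their representative probe set were ITGB3, LAMB1 and ITGB8. They are 14.3% of the 21, against 14.4% of all genes over the bound. ITGB3 differed by -0.34 (SE 0.081, 0.790-fold, adjusted p = 0.472). LAMB1 differed by 0.20 (SE 0.060, 1.15-fold, adjusted p = 0.472), and ITGB8 by 0.25 (SE 0.087, 1.19-fold, adjusted p = 0.473). The values of ITGB8 came close between groups, since the lower induced array at 12.00 and the higher control at 11.94 were 0.06 apart. With the probe sets of each gene averaged, ITGB3 was at -0.097, LAMB1 at 0.079 and ITGB8 at -0.15 (adjusted p = 0.666, 0.539 and 0.516). Such an average weighs every probe set alike, also those under the bound. ITGB8 was at 0.38 without the first control array and 0.12 without the second, and LAMB1 at 0.13 without the second induced array. The platelet markers, a cell type that carries beta 3, had a summed linear intensity of 267 to 276 in the induced arrays and 276 to 290 in the controls, with 1 of 4 over the bound. The marker over it was GP9, through an x_at probe set, and PF4, GP1BA and PPBP were under it on all arrays. The cultures were of a cell line, so this sum does not count platelets, and its relation to ITGB3 was not tested. ITGA9, picked out here after its values were seen, had the largest difference of the 35 genes, at -0.47 (SE 0.109, adjusted p = 0.472). Its representative read 6.55 and 6.40 in the induced arrays, about the bound, and 6.82 and 7.06 in the controls. Its 3 other probe sets were under the bound on all arrays and gave -0.06, 0.07 and 0.17.

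The other probe sets of these genes differed among themselves. The 4 other probe sets of ITGB8 were all lower after induction, where the brightest was higher. The brighter 3 of those 4 gave -0.34, -0.21 and -0.17, and the dimmest gave -0.31 (SE 0.096, unadjusted p = 0.018, adjusted p = 0.472). The most negative one read 8.39 and 7.74 in the induced arrays and 8.58 and 8.23 in the controls, so the second induced array stood lowest. The second probe set of LAMB1 read 10.32 and 10.31 in the induced arrays and 10.35 and 10.36 in the controls, a difference of -0.04 (SE 0.038) beside the 0.20 of the first. Of the 7 ITGB3 probe sets 6 were lower by sign and 1 higher, from -0.34 to 0.08, and the pair next in brightness, over the bound on 2 and 3 arrays, gave -0.013 and -0.0033. Of the dim ITGB3 probe sets under the bound on all arrays, 1 gave -0.27 (unadjusted p = 0.030, adjusted p = 0.477) and 1 gave -0.12, both with induced values under both controls.

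LAMA4 showed 1 sign in all of its 5 probe sets, which ran from -0.37 to -0.03, and none passed. Averaged they gave -0.20 (adjusted p = 0.429). The one at -0.37 read 7.86 and 7.33 in the induced arrays and 8.01 and 7.93 in the controls, and another read 7.92 and 7.61 in the induced arrays and 7.98 and 7.93 in the controls. In both the second induced array was the lowest. Of the 7 probe sets of ITGB1, 3 were over the bound, and they gave 0.08, -0.09 and -0.04. The 4 probe sets of ITGB5, all over the bound, gave -0.09, 0.12, 0.12 and -0.10, and the positive ones carry the x_at mark. ITGA6 gave 0.04 and -0.18, and the 4 probe sets of ITGA4 were all lower by sign, from -0.15 to -0.01. Those of ITGA8 ran from -0.18 to 0.13, with only the first over the bound, and those of ITGB4 from -0.16 to 0.14. Over genes with more than 1 probe set above the bound, the signs differed in 7 of 10 integrin and laminin genes (70%), and in 52.5% of 5015 genes in all. The number of probe sets per gene was not matched between these shares, and their difference was not tested. For the control gene ACTB, the 3' minus 5' difference in log2 signal, a measure of RNA integrity and labelling, was 0.03 and 0.11 in the induced arrays and -0.04 and 0.02 in the controls. For GAPDH it was -0.04 and -0.05 in the induced arrays and -0.07 and -0.07 in the controls. Their part in the disagreement between probe sets was not tested.

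**Figure D4:**
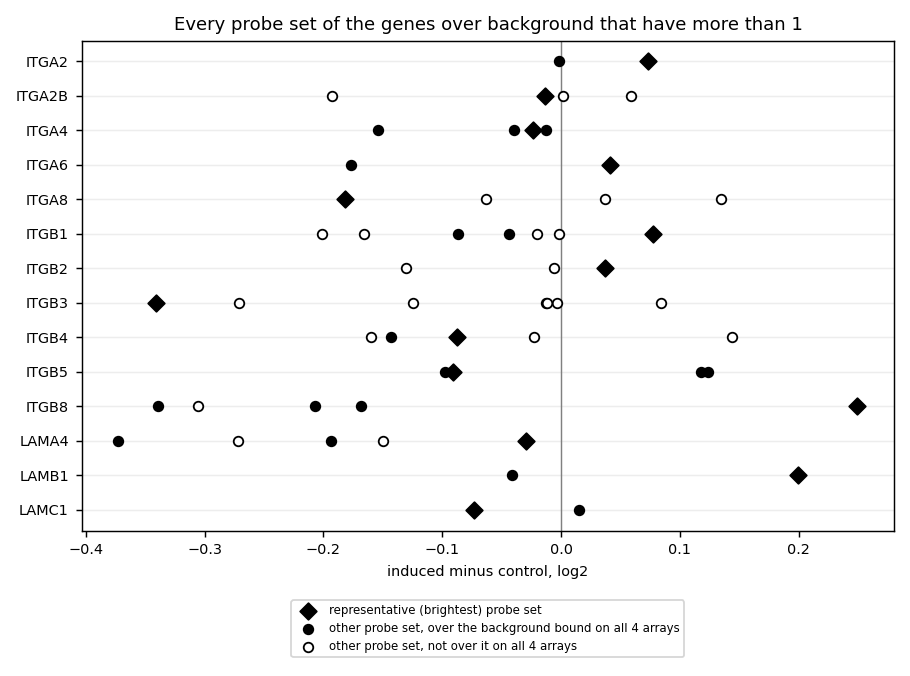
Induced minus control difference in log2 intensity for every probe set of the genes over the background bound that have more than 1, with diamonds for the brightest probe set and open circles for probe sets not over the bound on all 4 arrays. The brightest probe sets of ITGB8 (0.25) and LAMB1 (0.20) lie to the right of all their other probe sets, and the 5 of LAMA4 lie between -0.37 and -0.03.

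Among genes under the bound, single dim probe sets stood apart from the others of their gene. LAMA2, the alpha chain of muscle laminin, had a dim probe set at -0.28 (SE 0.108, unadjusted p = 0.038, adjusted p = 0.485) beside 3 at -0.04 to 0.12. ITGA1 gave 0.08 in its representative and -0.37 in a far dimmer probe set, at a mean of 3.37. The 2 of LAMC3 gave -0.17 and 0.12. The 14 genes not over the bound on all arrays had differences of -0.47 to 0.08 in their representatives.

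The partners of these receptors and matrix proteins were mostly over background, and none of those measured passed the test. Of 55 listed adhesion genes 51 were measured and 44 were over the bound, against 10960 of 19775 genes in all. Of the 51, 0 were called by limma, as were 0% of all genes. At an unadjusted p under 0.05, 3 were higher and 2 lower, against 6.48% and 4.73% of all genes. The list's median difference was -0.02, against -0.0030 over all genes, and its groups did not overlap in 25 of 51, against 43.9% of all genes.

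By role, 16 of 19 measured integrin activators, adaptors and kinases were over the bound. FERMT2 (kindlin-2, which binds beta tails) read 10.77 and 10.72 in the induced arrays and 10.68 and 10.54 in the controls, a difference of 0.14 (adjusted p = 0.490). BCAR1 (the adaptor p130Cas) differed by -0.18 (adjusted p = 0.490) and VCL (vinculin, which ties talin to actin) by 0.09. Of the integrin ligands 9 of 12 were over it. THBS1 (thrombospondin 1) differed by 0.39 (SE 0.082, adjusted p = 0.472), EDIL3 (an RGD ligand of alpha V pairs) by -0.14 and SPP1 (osteopontin) by -0.08. Of the basement membrane partners of laminin 9 of 10 were over it, with HSPG2 (perlecan) at -0.18, COL18A1 at -0.15 and the nidogen NID2 at -0.13, none under an unadjusted p of 0.05. Of the other laminin receptors and lateral partners all 10 measured were over it. The syndecans SDC2 and SDC4, co-receptors with heparan sulfate chains, differed by -0.26 (SE 0.042, adjusted p = 0.391) and 0.12 (SE 0.037, adjusted p = 0.472), and the tetraspanin CD81 by 0.10.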

How the data were processed

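Per the labels, total RNA from 4 LN-229 cultures was turned into biotin cRNA, and each culture had its own array. The authors deposited a log2 value for each probe set. The submitters' processing notes name RMA and affy, whose versions are not given in the sources used here. RMA equalises the distributions of the arrays, so a shift shared by most genes would not be seen. Groups came from the sample titles.

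The table has 54675 rows, of which the 62 array controls entered no test. Gene names came from the platform annotation: 41091 probe sets had 1 symbol, 1801 several and 11721 none, and those with several or none were counted for no gene. The fit was limma 3.58.1 in R 4.3.3 (lmFit, eBayes with an intensity trend, 2-sided, 6.27 degrees of freedom) over 54613 probe sets, with Benjamini-Hochberg adjustment and a threshold of 0.05. It was tested on simulated data with changes larger than any seen here, which does not show its power for smaller ones. Array number limits the precision. Figures were drawn with matplotlib 3.10.9.

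Values on every array are given for genes over the background bound whose representative probe set had an unadjusted p under 0.05 and for the 14 such genes with the highest mean. Others are named where another probe set had an unadjusted p under 0.05 or differed in sign by more than 0.2, and up to 3 partner genes of smallest p per subgroup. ITGA9, ITGB2, ITGA2, ITGA2B, LAMA5, TLN1 and the genes named without values were added after their values were seen. The members, the lists and the background families were chosen with earlier results of these data known. Alternatives were other variance priors, filters on dim probe sets, centring and cyclic loess, a replicate block, probe sets averaged per gene, other bounds, and leaving out each array.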

Additional observations from a re-analysis of the deposited data

Results flagged for a closer look

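A probe set outside the comparison, because its annotation holds an integrin gene beside another gene, showed groups further apart than the replicates of each group, with induction on the higher side. It read 3.95 and 4.03 in the induced arrays and 3.85 and 3.80 in the controls, a difference of 0.17, with all values under the background bound. The 3 other probe sets with the same annotation, also under the bound, gave 0.26, -0.013 and -0.12.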

How the results depend on the processing

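The count of 0 integrin and laminin probe sets, and of 0 partner genes, held under all alternatives run, at a threshold of 0.1 and without any 1 array. Over all probe sets, calls numbered 2 with robust eBayes, 5 after centring, 11 after cyclic loess and 2 at 0.1, all higher. Integrin and laminin probe sets at an unadjusted p under 0.05 numbered 4 to 10 when 1 array was left out, and the 4, without the second induced array, were 0 higher and 4 lower. Same-numbered arrays deviated together with a correlation of 0.056 over all probe sets, so the numbers are not shown to pair the cultures. With the replicate block the count was 0 called and 7 at an unadjusted p under 0.05, 0 higher and 7 lower. The median difference of -0.02 was -0.043 with the dimmer part of all probe sets left out (those under the median level), -0.036 with probe sets averaged per gene, 0.0043 after centring, 0.0015 after cyclic loess and -0.057 to -0.025 without 1 array. Genes over the bound numbered 16 to 25 under the other bounds and with probe sets averaged per gene. Of the 15 genes chosen by level or unadjusted p for values on every array, 7 kept their sign throughout and 8 did not. ITGA2, ITGA9, ITGB2 and LAMA5, added after their values were seen, were not followed gene by gene under the alternatives. With probe sets averaged per gene, ITGB8 was at -0.15, ITGB1 at -0.063, ITGA6 at -0.068 and ITGB5 at 0.013, while ITGB3 at -0.097, LAMB1 at 0.079 and LAMA4 at -0.20 moved without turning. The average weighs every probe set alike, also those under the bound, and of the 7 for ITGB1 only 3 were over it on all arrays. Centring turned ITGA4 to 0.0011. Without 1 array ITGA4 ran from -0.048 to 0.00076, ITGA5 from -0.061 to 0.16, ITGA6 from -0.098 to 0.18, LAMA4 from -0.10 to 0.045 and LAMB3 from -0.0043 to 0.090. The smallest adjusted p of any of these was 0.332. The cause was not tested.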
